A study of Mus musculus with 8 samples.

Results

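Granins are acidic secretory proteins that are packed into dense-core granules, and the prohormone processing enzymes cut and trim the precursors that are packed with them. Transcript levels of 10 such genes were measured in cultured mouse cortical neurons. The granins were Vgf, Scg2, Scg3, Chga and Chgb, the enzymes were Pcsk1, Pcsk2 and Cpe, and the convertase regulators were Scg5 and Pcsk1n. They were chosen by name as a functional group, with earlier results of these data known. Their RefSeq transcripts were matched to symbols, and the transcript values of each gene were summed. All 10 were present among the 23946 genes of the table, and all 10 passed the filter on low values that kept 13143 genes for testing.

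The 8 libraries formed 4 groups of 2: Rem2 KO with KCl, Rem2 KO, Control with KCl, and Control. Cortical neurons of all groups were isolated at embryonic day 16.5, kept for 6 days in Neurobasal medium with B27 supplement, and received 1 µM tetrodotoxin, a sodium channel blocker, overnight from day 5. In both KCl groups 55 mM KCl, which depolarises neurons, was then applied for 4 h, so that the groups without KCl stood for silenced cultures. The genotype field read Rem2 flx/flx for all 8 libraries, the groups were taken from the titles, and the source of Cre and the removed exons are not given in the sources used here. Rem2 is an RGK family GTPase, a class known to inhibit voltage-gated calcium channels.

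In neurons, precursors of neuropeptides and of some growth factors enter the regulated secretory pathway, where proprotein convertases cut them after pairs of basic residues and carboxypeptidase E removes the basic residues left at the new ends. Granins share these granules and are themselves cut into peptides, and several granin and convertase genes are known in other neuronal and endocrine systems to respond to cyclic AMP and depolarisation. The palindrome TGACGTCA is the cyclic AMP response element, to which factors of the CREB family bind.

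The promoters of 3 of the 10 genes are shown because they held that element. RefSeq windows (build GRCm38.p6) of 250 bases before to 50 bases after the annotated start were at hand for 8 of the 10 genes, and Vgf and Cpe had none. TGACGTCA was found in 3 of these 8 windows, against 1.79% of 32851 windows of the same length. The element began 78 bases before the start of the RefSeq table in Pcsk1 (chr13:75089607-75089906, plus strand), 68 bases before it in Scg2 (chr1:79439977-79440276, minus strand) and 72 bases before it in Chgb (chr2:132781392-132781691, plus strand). The transcripts whose FPKM are reported start elsewhere in the GENCODE M21 annotation of GRCm38. Against those starts the element began 47 bases before Pcsk1 NM_013628 and 52 bases before Scg2 NM_001310680. It lay inside the first exon of Scg2 NM_009129, from base 27, and of Chgb NM_007694, from base 293. Capitals mark the element, and each window runs 5′ to 3′ on the strand of the gene.
Pcsk1: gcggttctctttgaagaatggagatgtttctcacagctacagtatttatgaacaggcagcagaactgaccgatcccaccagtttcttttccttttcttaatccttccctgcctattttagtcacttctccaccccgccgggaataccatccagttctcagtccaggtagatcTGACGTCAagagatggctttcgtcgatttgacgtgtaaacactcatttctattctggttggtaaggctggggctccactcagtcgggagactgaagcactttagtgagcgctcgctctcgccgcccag
Scg2: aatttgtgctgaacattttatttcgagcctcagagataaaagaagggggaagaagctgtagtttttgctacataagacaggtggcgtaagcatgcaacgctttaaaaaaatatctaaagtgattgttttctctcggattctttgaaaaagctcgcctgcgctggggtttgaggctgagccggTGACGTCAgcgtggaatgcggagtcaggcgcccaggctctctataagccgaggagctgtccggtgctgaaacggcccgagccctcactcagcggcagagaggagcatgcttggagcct
Chgb: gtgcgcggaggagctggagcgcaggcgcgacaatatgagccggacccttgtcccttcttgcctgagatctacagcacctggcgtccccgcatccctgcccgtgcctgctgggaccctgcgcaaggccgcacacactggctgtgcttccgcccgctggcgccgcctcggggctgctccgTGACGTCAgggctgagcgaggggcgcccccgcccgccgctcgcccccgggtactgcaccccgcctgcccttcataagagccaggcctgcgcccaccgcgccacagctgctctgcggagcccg
The shorter core TGACG, searched on both strands and counted also inside the full element, stood in 7 of the 8 windows, against 20.8% of all windows. It was absent from the window of Pcsk1n, which was the single window of the 8 to hold TGANTCA, the site of AP-1 factors, present in 7.81% of all windows. A match of letters describes the window and was not tested as a binding site.

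Scg2 is shown a second time for the stretch that separates its 2 transcripts in the table. The transcript NM_009129 has 2 exons and a coding length of 1851 bases. The transcript NM_001310680 has 3 exons and a coding length of 1731 bases, because 120 bases (40 codons) inside the coding exon are left out of it. The stretch lies at chr1:79435932-79436051 (GRCm38, minus strand) and begins with GT and ends with AG, shown in capitals.
Scg2 stretch: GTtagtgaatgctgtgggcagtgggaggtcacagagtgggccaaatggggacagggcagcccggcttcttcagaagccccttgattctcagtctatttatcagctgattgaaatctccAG
The annotated first exons of the transcripts also differ by 78 bases at their start.

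The values are FPKM, fragments per kilobase of transcript and per 1 M mapped fragments, which makes levels of different genes comparable within a library. From 11998 to 12770 genes per library had at least 1 FPKM. Read counts were not used here, and a rough depth read from steps among the lowest values was 18.8 to 21.1 M fragments for replicate 1 of each group and 33.5 to 42.2 M for replicate 2. Rem2 itself had 11.7 and 12.4 FPKM in Rem2 KO with KCl and 2.13 and 1.70 FPKM in Rem2 KO, against 22.5 and 21.4 FPKM in Control with KCl and 6.29 and 2.54 FPKM in Control. Rem2 was lower under the Rem2 KO label in all 4 pairs of same-numbered libraries, with an averaged log2 difference of -0.81 ± 0.23 (SE) that did not pass the test across all genes (limma, adjusted p = 1.00). Neuron markers summed to 2263 to 2717 FPKM over all libraries and microglia markers to 0.895 to 4.08 FPKM. Oligodendrocyte lineage markers summed to 276 to 440 FPKM and astrocyte markers, without Aqp4, to 250 to 409 FPKM. The design text calls the 2 libraries of a group biological replicates without saying whether they came from separate animals, so p-values measure the spread between these libraries.

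In depolarised neurons 3 of the 10 genes rose, Pcsk1, Vgf and Scg2, in Rem2 KO and in Control alike, and none fell (limma). Pcsk1 was about 50-fold higher with KCl, and Vgf and Scg2 were more than 10-fold higher. Among all 13143 genes tested, 5.74% rose and 10.3% fell in Rem2 KO, and 5.18% rose and 12.2% fell in Control. The other 7 genes had log2 differences of -0.19 to 0.29 in Rem2 KO and of -0.10 to 0.24 in Control, and none of them passed the test. The median difference over the 10 genes was 0.16 in Rem2 KO and 0.14 in Control, beside -0.12 and -0.14 over all genes tested. Differences were taken after adding 1 to each FPKM and a log2 transform, so changes of low genes are understated, and were tested with limma across all genes at an adjusted p of 0.05. In these bulk samples, fewer cells of a type and less RNA per cell cannot be told apart.

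**Figure D1:**
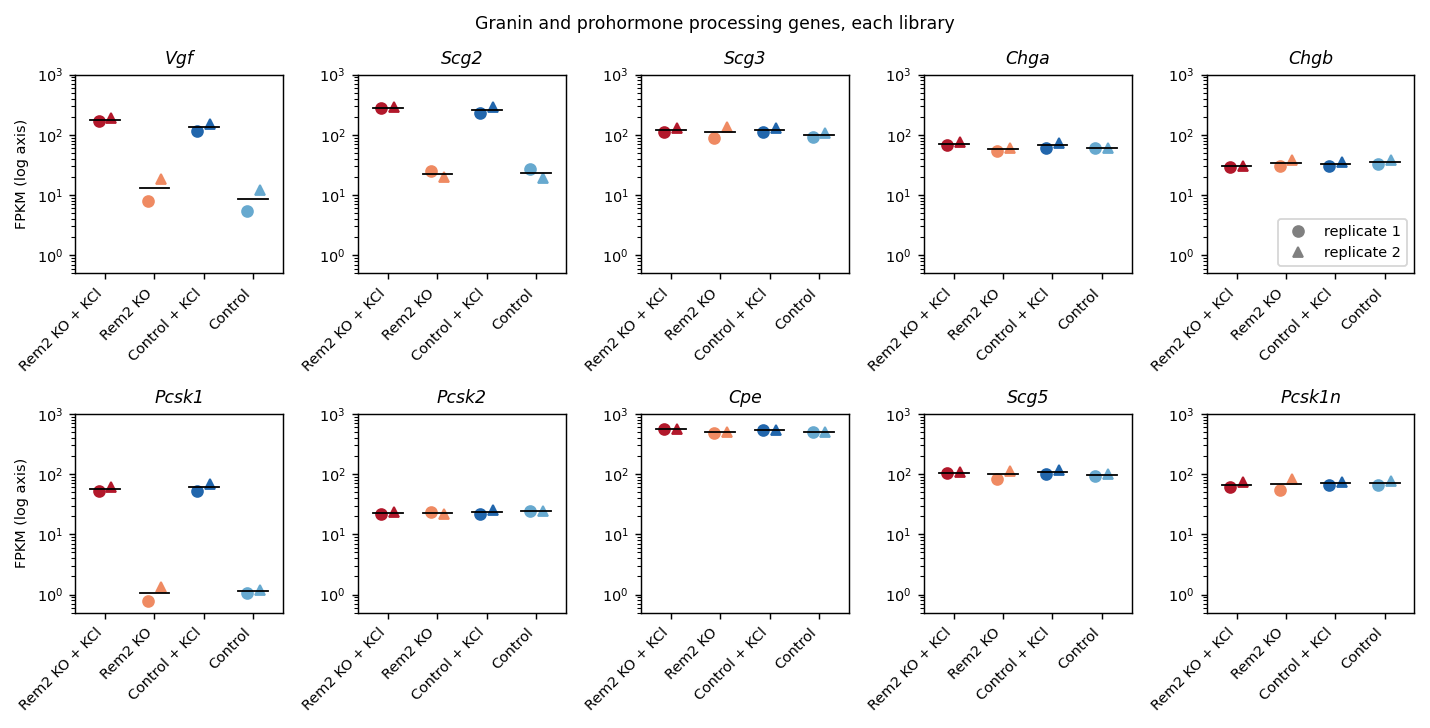
FPKM (log axis) of the 10 genes in each library, with circles for replicate 1, triangles for replicate 2 and a line at the mean of each group (n = 2). Pcsk1, Vgf and Scg2 lie far higher in both KCl groups than in both silenced groups, while the libraries of each of the other 7 genes lie close together.

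Among the enzymes, Pcsk1, which encodes a convertase that makes the first cuts in many prohormones, was close to the detection filter in silenced neurons. It had 51.9 and 60.3 FPKM in Rem2 KO with KCl and 0.783 and 1.35 FPKM in Rem2 KO. It had 52.7 and 67.1 FPKM in Control with KCl and 1.05 and 1.19 FPKM in Control. All 4 libraries with KCl were above all 4 without it, and the genotypes overlapped in each KCl state. The mean FPKM was 52.6-fold higher with KCl in Rem2 KO and 53.4-fold higher in Control. The log2 difference was 4.80 ± 0.19 (SE) in Rem2 KO (limma, adjusted p = 0.000552) and 4.83 ± 0.19 in Control (adjusted p = 0.000616). With KCl, Pcsk1 stood above 87.5% of the genes tested in Rem2 KO and 88.5% in Control, against 4.06% in silenced Rem2 KO and 4.90% in silenced Control.

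Pcsk2, which encodes the second neuroendocrine convertase, had 22.0 and 23.7 FPKM in Rem2 KO with KCl and 23.9 and 22.0 FPKM in Rem2 KO. It had 21.5 and 25.5 FPKM in Control with KCl and 24.1 and 24.7 FPKM in Control. Libraries with and without KCl overlapped in both genotypes, and the log2 difference with KCl was -0.00 ± 0.11 (SE) in Rem2 KO and -0.06 ± 0.11 in Control (limma, adjusted p = 1.00 and 0.827). The order of the convertases differed between states. The ratio of Pcsk1 to Pcsk2 was 2.36 and 2.54 in Rem2 KO with KCl and 0.0328 and 0.0616 in Rem2 KO. It was 2.45 and 2.63 in Control with KCl and 0.0437 and 0.0483 in Control. Pcsk1 was thus the higher convertase transcript in the 4 libraries with KCl and the lower one in the other 4.

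Cpe, which encodes carboxypeptidase E, was the most abundant of the 10 genes in all 8 libraries. It had 559.5 and 551 FPKM in Rem2 KO with KCl, 487 and 509 FPKM in Rem2 KO, 534 and 543 FPKM in Control with KCl and 504 and 492 FPKM in Control. The libraries with KCl were all above those without it, by a small margin. The log2 difference was 0.16 ± 0.13 (SE) in Rem2 KO and 0.11 ± 0.13 in Control and did not pass the test (limma, adjusted p = 0.484 and 0.644).

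Among the granins, Vgf, whose product is cut into several secreted peptides, had 169 and 186 FPKM in Rem2 KO with KCl and 7.84 and 18.6 FPKM in Rem2 KO. It had 116 and 151 FPKM in Control with KCl and 5.38 and 12.1 FPKM in Control. Every library with KCl was above every library without it, and in each group the library numbered 2 was the higher one. The log2 difference was 3.76 ± 0.47 (SE) in Rem2 KO (limma, adjusted p = 0.00794) and 3.87 ± 0.47 in Control (adjusted p = 0.00715). The mean FPKM was 13.4-fold higher with KCl in Rem2 KO and 15.4-fold higher in Control. Between same-numbered libraries the ratio was 21.6 and 10.0 in Rem2 KO and 21.6 and 12.6 in Control, for replicates 1 and 2. Vgf had the widest spread of the 3 genes, and its call was lost in Rem2 KO without Rem2 KO_KCl replicate 1 (adjusted p = 0.0594) or when those 4 libraries alone were fitted (0.0705). In Control it was lost without Control_KCl replicate 1 (0.0541) or Control_KCl replicate 2 (0.0577).

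Scg2 encodes secretogranin II, the precursor of the peptide secretoneurin. It had 276 and 284 FPKM in Rem2 KO with KCl and 25.4 and 19.6 FPKM in Rem2 KO. It had 231 and 288 FPKM in Control with KCl and 26.7 and 18.9 FPKM in Control. The groups with and without KCl were far apart, and the genotypes overlapped within each state. The mean FPKM was 12.4-fold higher with KCl in Rem2 KO and 11.4-fold higher in Control. The log2 difference was 3.59 ± 0.21 (SE) in Rem2 KO (limma, adjusted p = 0.00147) and 3.47 ± 0.21 in Control (adjusted p = 0.00203).

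Chga, which encodes chromogranin A, had 66.4 and 76.0 FPKM in Rem2 KO with KCl and 54.6 and 61.3 FPKM in Rem2 KO. It had 60.1 and 72.7 FPKM in Control with KCl and 60.8 and 60.7 FPKM in Control. The Rem2 KO groups did not overlap and the Control groups did. The log2 difference was 0.29 ± 0.13 (SE) in Rem2 KO (limma, adjusted p = 0.192) and 0.12 ± 0.13 in Control (adjusted p = 0.619). With the replicate number as a block Chga passed in Rem2 KO (adjusted p = 0.0240), where 16.1% of all genes rose under that fit. It passed also under upper quartile scaling (adjusted p = 0.0492) and TMM-type scaling (adjusted p = 0.0247). Of all genes, 21.3% and 19.9% passed in either direction under these scalings. Under quantile normalization Chga passed in Rem2 KO with the block (limma, adjusted p = 0.0483) but not without it.

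Chgb, which encodes chromogranin B and whose promoter window held the full element, had 29.5 and 30.3 FPKM in Rem2 KO with KCl and 30.6 and 38.0 FPKM in Rem2 KO. It had 29.9 and 35.8 FPKM in Control with KCl and 32.7 and 37.6 FPKM in Control. The Control groups overlapped and the Rem2 KO groups lay next to each other, with the KCl libraries below. The log2 difference was -0.19 ± 0.15 (SE) in Rem2 KO and -0.10 ± 0.15 in Control and did not pass the test (limma, adjusted p = 0.473 and 0.741). Of the 3 genes with the element, Pcsk1 and Scg2 rose with KCl and Chgb did not, while Vgf, which also rose, had no window. Among all genes tested, with or without the element, 5.74% rose in Rem2 KO and 5.18% in Control. How many of all genes with the element rose was not computed, and a link was not tested.

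Scg3, which encodes secretogranin III, a granule membrane-associated granin that binds chromogranin A, ranged from 87.3 to 132 FPKM over the 8 libraries. Its log2 difference with KCl was 0.16 ± 0.22 (SE) in Rem2 KO and 0.24 ± 0.22 in Control (limma, adjusted p = 0.719 and 0.530), and the states overlapped in Rem2 KO but not in Control. Among the regulators, Scg5, whose product is a chaperone and inhibitor of the convertase encoded by Pcsk2, ranged from 83.3 to 117 FPKM. Pcsk1n, whose product proSAAS inhibits the convertase encoded by Pcsk1, ranged from 55.1 to 82.8 FPKM. Their log2 differences with KCl were 0.11 ± 0.17 and -0.03 ± 0.22 in Rem2 KO and 0.17 ± 0.17 and -0.02 ± 0.22 in Control, and neither passed (limma, adjusted p of 0.594 to 0.983). The FPKM of Pcsk1 relative to that of its inhibitor Pcsk1n was 0.865 and 0.832 in Rem2 KO with KCl and 0.0142 and 0.0163 in Rem2 KO, against 0.810 and 0.894 in Control with KCl and 0.0159 and 0.0156 in Control. Pcsk1 stayed below Pcsk1n in all 8 libraries and came near to it in those with KCl.

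**Figure D2:**
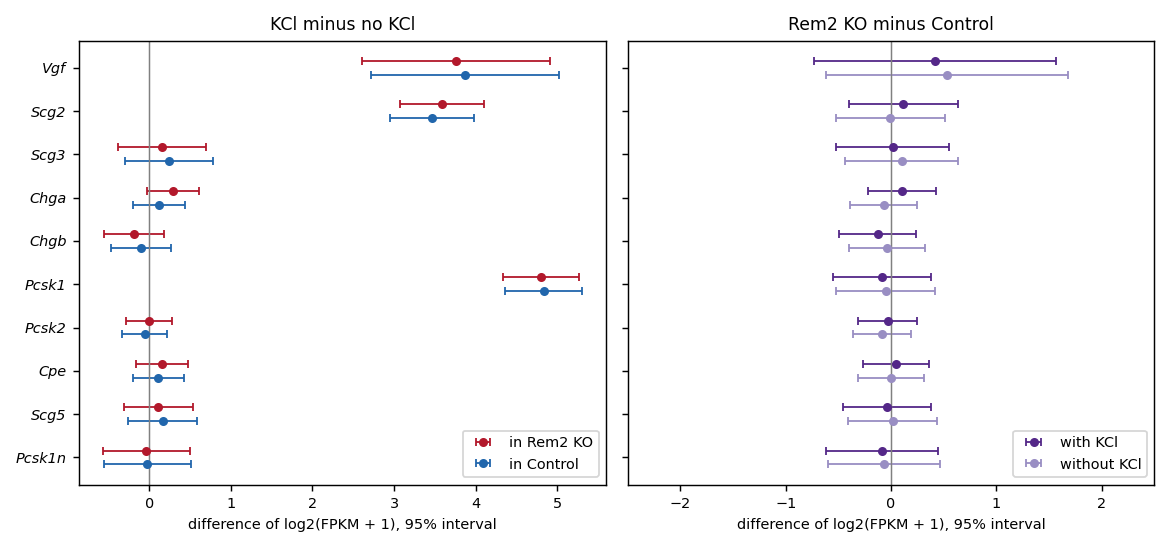
Log2(FPKM + 1) differences of the 10 genes with 95% limma intervals: KCl minus no KCl on the left (Rem2 KO above Control) and Rem2 KO minus Control on the right (with KCl above without KCl). Pcsk1, Vgf and Scg2 lie at 3.47 to 4.83 on the left, and on the right all intervals include 0.

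The order of the levels differed between silenced and depolarised neurons. In Rem2 KO without KCl it ran from Cpe through Scg3, Scg5, Pcsk1n, Chga, Chgb, Pcsk2, Scg2 and Vgf to Pcsk1, and in Control without KCl it was the same. Neighbours whose libraries overlapped were Scg3 and Scg5, and Pcsk2 and Scg2, in both genotypes, and Pcsk1n and Chga in Rem2 KO. With KCl, Scg2 and Vgf followed directly after Cpe in both genotypes, and Pcsk1 stood above Chgb and Pcsk2. There the libraries of Chga, Pcsk1n and Pcsk1 overlapped from one to the next in both genotypes, and in Control those of Vgf and Scg3 and of Scg3 and Scg5 did too.

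The 2 transcripts of Scg2 did not rise equally. NM_001310680, without the 120 bases, made up 66.8% and 69.4% of the Scg2 FPKM in Rem2 KO with KCl and 41.5% and 38.5% in Rem2 KO. It made up 67.6% and 70.4% in Control with KCl and 33.3% and 33.7% in Control. It was the major transcript in the 4 libraries with KCl and the minor one in the 4 without. Among the silenced libraries the share was higher in both Rem2 KO libraries than in both Control libraries, a difference that was not tested. The share was 68.6% ± 1.67 with KCl and 36.8% ± 3.95 without (SD, n = 4 each), a difference of 31.8 percentage points (exact two-sided permutation test, p = 0.0286, the smallest this design allows, and 0.0286 after adjustment over the 2 genes with 2 transcripts). That test ignores genotype and the pairing of same-numbered libraries. With swaps confined to the 4 pairs of the same genotype and number the exact permutation p was 0.125, the smallest that 4 pairs allow, and all 4 pairs moved the same way. The difference was 28.1 points within Rem2 KO and 35.5 points within Control.

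The level of NM_001310680 averaged 191 ± 9.22 FPKM in Rem2 KO with KCl and 9.06 ± 2.11 FPKM in Rem2 KO (SD, n = 2 each), a 21.0-fold difference, and 179.8 ± 32.9 FPKM in Control with KCl and 7.63 ± 1.79 FPKM in Control, a 23.6-fold difference. NM_009129, which keeps the stretch, averaged 89.2 ± 3.40 FPKM in Rem2 KO with KCl and 13.5 ± 1.99 FPKM in Rem2 KO, a 6.62-fold difference, and 80.1 ± 7.32 FPKM in Control with KCl and 15.2 ± 3.74 FPKM in Control, a 5.28-fold difference. Both transcripts were thus higher with KCl, and the shorter coding form more so. Scg3 is the other gene with 2 transcripts in the table. Its transcript NM_001164790 held 63.9% ± 1.03 of the Scg3 FPKM with KCl and 59.7% ± 1.53 without (SD, n = 4 each), a difference of 4.15 points (exact two-sided permutation test, p = 0.0286, and 0.0286 after adjustment, or 0.125 within pairs). The split between transcripts is the estimate of Cufflinks from overlapping annotations, with no read counts across the junctions used here.

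**Figure D3:**
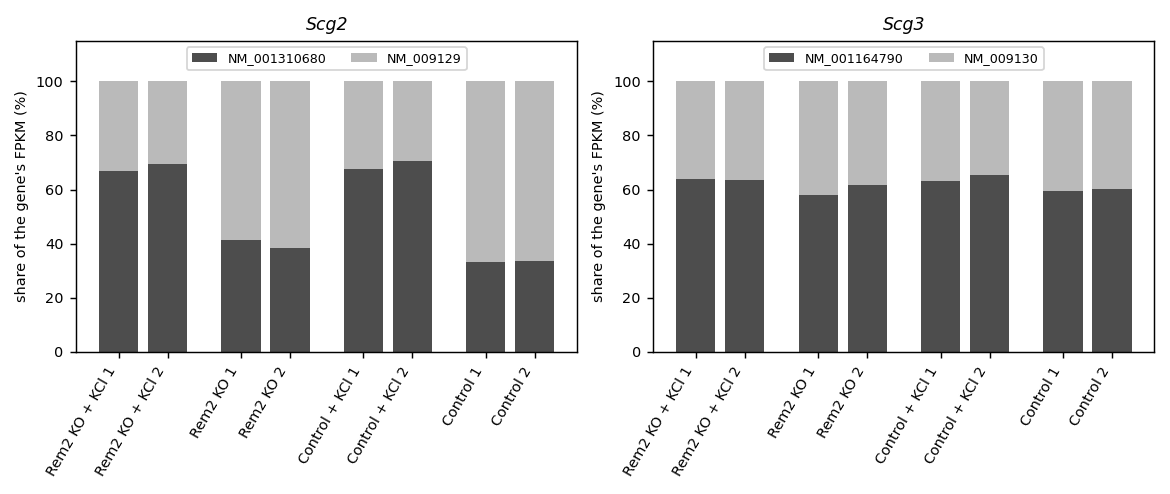
Share of the FPKM of Scg2 (left) and Scg3 (right) assigned to each of their 2 RefSeq transcripts, 1 bar per library. The dark Scg2 share, of the transcript without the 120 bases, is 66.8% to 70.4% in the libraries with KCl and 33.3% to 41.5% in those without, while the Scg3 share moves by 4.15 points.

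None of the 10 genes passed the test between Rem2 KO and Control in either KCl state, averaged over both states, or in the interaction of KCl and genotype (limma, 0 of 10 in each). Over all genes tested, 0.0228% passed without KCl, 0.0457% with KCl, 0.00761% averaged over both and 0.00761% in the interaction. At an unadjusted p under 0.05 also 0 of 10 passed in each, beside 1.36%, 1.48%, 2.5% and 0.502% of all genes in the same order of comparisons. With the replicate block 0 of 10 passed at the adjusted threshold in each, where 0.0304%, 0.0761%, 0.426% and 0.0685% of all genes passed. At an unadjusted p under 0.05 that fit gave 1 of 10 averaged over both states, Vgf, and 0 in the other comparisons, while 7.65%, 7.5%, 11.2% and 3.43% of all genes passed. The log2 differences averaged over KCl states ran from -0.08 to 0.47 over the 10 genes, with Vgf at the upper end. Vgf was higher in Rem2 KO in all 4 same-numbered pairs, by ratios of 1.46 and 1.23 with KCl and 1.46 and 1.54 without it. Its libraries did not overlap between the genotypes with KCl and did so without it. Its averaged difference was 0.47 ± 0.33 (SE, limma, 95% interval -0.34 to 1.29, adjusted p = 1.00). Leaving out 1 library moved it to between 0.19 and 0.76, and moved the difference with KCl alone, 0.42, to between 0.06 and 0.77. With the replicate block the averaged interval was 0.06 to 0.89 (unadjusted p = 0.0306, adjusted p = 0.382).

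No difference between the genotypes in the rise of the 3 genes was detected, within wide limits. The interaction, the log2 rise in Rem2 KO minus that in Control, was -0.04 for Pcsk1 (95% interval -0.70 to 0.63), 0.12 for Scg2 (-0.61 to 0.85) and -0.11 for Vgf (-1.74 to 1.52). For Vgf a difference of more than 2-fold in either direction was therefore within the interval of this fit. With the replicate block the intervals were narrower. They were -0.36 to 0.29 for Pcsk1, -0.51 to 0.75 for Scg2 and -0.94 to 0.72 for Vgf.

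A list of 42 other genes of the regulated secretory pathway was described beside the 10, of which 34 were tested (13 enzymes, 19 granule proteins and 2 receptors). With KCl 2 rose and 2 fell in Rem2 KO, and 2 rose and 5 fell in Control, against 16.1% of all genes passing in either direction in Rem2 KO and 17.4% in Control. The median log2 difference of the 34 was -0.07 in Rem2 KO and -0.05 in Control. With the replicate block 10 rose and 10 fell in Rem2 KO, and 7 rose and 11 fell in Control, where 47.5% and 48.6% of all genes passed. In fits without the block, fewer of the 34 passed in Rem2 KO when Rem2 KO replicate 2 or either Rem2 KO_KCl replicate was left out. Fewer passed in Control when any 1 of the 4 libraries compared there was left out. Those fits leave 1 library in a group, and fewer of all genes passed in them as well. Ptprn passed in both genotypes whichever library was left out. When the 4 Rem2 KO libraries alone were fitted, neither Ptprn nor Pam passed, and 0.398% of all genes did. Without the block, Pam did not pass in Rem2 KO when either Rem2 KO_KCl replicate was left out. In Control, also without the block, Pam did not pass when Control replicate 1 or either Control_KCl replicate was left out. Between the genotypes 0 of the 34 passed in any comparison (limma, with and without the replicate block). At an unadjusted p under 0.05 also 0 of the 34 passed there. With the block it was 2 without KCl, 1 with KCl, 2 averaged over both and 2 in the interaction, beside 7.65%, 7.5%, 11.2% and 3.43% of all genes. C3ar1 and C1qbp, which encode receptors reported in rodents for a peptide of the Vgf product, did not pass with KCl in either genotype, though C1qbp was lower with KCl in Rem2 KO under the block (log2 difference -0.34, adjusted p = 0.0202).

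Both genes that rose did so in both genotypes. Pam encodes the enzyme that amidates the ends of many neuropeptides, a step after the convertases and carboxypeptidase E. It had 101 and 129 FPKM in Rem2 KO with KCl and 20.9 and 32.5 FPKM in Rem2 KO, against 93.6 and 126 FPKM in Control with KCl and 20.1 and 31.0 FPKM in Control. The states did not overlap, and the log2 difference was 2.09 ± 0.31 (SE) in Rem2 KO and 2.08 ± 0.31 in Control (limma, adjusted p = 0.0114 and 0.0107). Ptprn, which encodes a phosphatase-like protein of the granule membrane, was 2.87-fold higher in mean FPKM with KCl in Rem2 KO and 2.45-fold higher in Control (adjusted p = 0.00246 and 0.00339).

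By the test 2 of the 34 tested genes of the list fell in Rem2 KO and 5 in Control. Of all genes 10.3% and 12.2% fell. The list was chosen by function, so the roles of those that fell are background. Pick1, which encodes a membrane-bending protein of granule budding, fell by 0.73 on the log2 scale in Rem2 KO and by 0.90 in Control (limma, adjusted p = 0.0130 and 0.00789). Vti1a, which encodes a SNARE protein of the Golgi, fell by 0.66 and by 0.69 (adjusted p = 0.0495 and 0.0421). Without the block, Vti1a lost its call in Rem2 KO whichever of the 8 libraries was left out, and Pick1 did not pass there without Rem2 KO replicate 2 or either Rem2 KO_KCl replicate. Hid1, Eipr1 and the aminopeptidase gene Rnpep passed in Control but not in Rem2 KO, with log2 differences of -0.26, -0.51 and -0.27 in Rem2 KO and -0.49, -0.68 and -0.61 in Control. With the replicate block Hid1 and Eipr1 passed in Rem2 KO as well (adjusted p = 0.0265 and 0.00568) and Rnpep did not (0.0689). In Control and without the block, Vti1a and these 3 genes lost their calls whichever of the 4 Control libraries was left out. Pick1 did so there without Control replicate 1 or either Control_KCl replicate. With the block and all libraries, all of these genes passed in Control (limma, adjusted p of 0.00076 to 0.0034), where 48.6% of all genes passed. The interaction did not pass for Hid1, Eipr1 and Rnpep (limma, adjusted p = 1.00 each). Under TMM-type scaling the median of all genes moved by more than 0.1, to -0.00 in Rem2 KO and 0.01 in Control, and the list then had 5 genes higher and 4 lower in Rem2 KO and 7 higher and 5 lower in Control. Of all genes, 9.4% were then higher and 10.5% lower in Rem2 KO, and 9.8% were higher and 10.4% lower in Control.

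**Figure D4:**
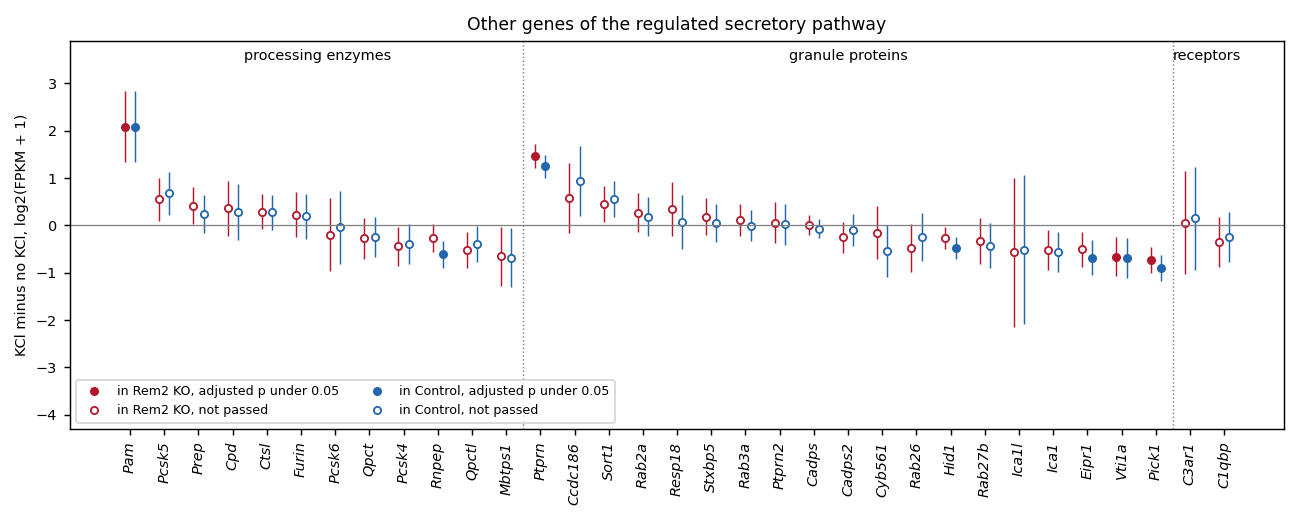
KCl minus no KCl differences, log2(FPKM + 1), with 95% limma intervals for 33 of the 34 other secretory pathway genes tested, grouped as enzymes, granule proteins and receptors, with Rem2 KO left of Control. Filled points passed at an adjusted p under 0.05, and Pam and Ptprn are the filled points above 0. Pcsk7, listed at 0 in all 4 libraries numbered 2, is not drawn.

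Genes whose centred log2 values lay nearest to each of the 3 risen genes over the 8 libraries were named by the mean absolute difference. Genes named Gm with a number, ending in Rik, or starting with Mir or Snor were skipped. For Pcsk1 they were Ttc19 (0.0981), Fos (0.262) and Npas4 (0.331). Ttc19 was listed at 0 in all 4 libraries without KCl. For Vgf they were Nptx2 (0.331), Fos (0.370) and Bdnf (0.421), and for Scg2 they were Fosl2 (0.195), Nr4a3 (0.230) and Zdbf2 (0.232). Fos stood among the nearest of both Pcsk1 and Vgf.

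Summed FPKM of the markers of some neuron types moved with KCl as well, which does not measure cell numbers. The 7 interneuron markers summed to 1319 to 1727 FPKM in Rem2 KO with KCl and 399 to 478 FPKM in Rem2 KO, against 1422 to 1723 FPKM in Control with KCl and 366 to 454 FPKM in Control, and 3 of the 7 rose in each genotype. The 5 excitatory neuron markers summed to 464 to 501 FPKM and 277 to 305 FPKM in those Rem2 KO groups, and to 518 to 611 FPKM and 292 to 362 FPKM in those Control groups, and 0 of the 5 rose in Rem2 KO and 1 in Control. Their part in the rise of Pcsk1, Vgf and Scg2 was not tested. Astrocyte markers, without Aqp4, summed to 250 to 409 FPKM over all libraries and none of the 5 passed with KCl. Of the 7 general neuron markers 2 rose in each genotype and 1 fell in Control, and of the 6 oligodendrocyte lineage markers 1 fell in each. Beside these counts, 5.74% of all genes tested rose and 10.3% fell in Rem2 KO, and 5.18% rose and 12.2% fell in Control.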

How the data were processed

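RNA of cultured mouse cortical neurons was sequenced in 8 libraries, 2 in each of 4 groups (Illumina TruSeq, 500 ng of RNA, per the labels' protocols). The authors aligned reads with TopHat and computed FPKM with Cufflinks on mm10, per the submitters' processing notes, which give no versions. Per the file headers, the deposited table gives an FPKM for each RefSeq transcript in each library. Gene symbols were found for 34205 of 34353 accessions, and the 148 without one carried 0.0806% to 0.261% of a library's summed FPKM. Transcript values were added up per gene, and 306 genes were dropped because an accession was repeated or a value was missing, which left 23946.

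Genes that reached 1 FPKM in 2 or more libraries entered the test, which was run on log2(FPKM + 1) with limma 3.58.1 in R 4.3.3 (empirical Bayes with a variance trend, 4 group means, 4 residual degrees of freedom) and Benjamini-Hochberg adjustment over all 13143 genes at 0.05. Read counts were not recovered, so no count test was run, and intervals from counting error cannot be given. Same-numbered libraries deviated together from their group means (r = 0.709 to 0.784 across genes over 6 pairs of groups), so a second fit took the replicate number as a block and had 3 residual degrees of freedom. Transcript shares were compared by exact permutation with scipy 1.17.1, over all libraries and within pairs. The main limma fit was checked on simulated data, for the KCl comparison in Control only. The simulated libraries varied independently, without the shared deviation of same-numbered libraries. The block fit and the permutation tests were not checked in this way. Alternatives were pseudocounts of 0.1 and 0.5, no filter or 5 FPKM, 3 scalings, no variance trend, the highest transcript only, a fit of the compared groups, leaving out each library, and combinations with the block, of which those of the block with a pseudocount or a left-out library and those of the transcript share were added after the data were seen.

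The 10 genes and the lists were chosen with earlier results of these data known. Named from the pathway list were genes that passed and the 2 receptors tested, which did not pass in the main fit. Pcsk7 was named as the gene not drawn. The 3 genes nearest to each risen gene were named as well.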

Additional observations from a re-analysis of the deposited data

How the results depend on the processing

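The rises of Pcsk1 and Scg2 with KCl passed under every alternative run. Apart from runs that left out 1 library, 2 to 4 of the 10 genes passed in Rem2 KO, where 0.398% to 47.5% of all genes passed. In Control 3 of the 10 passed in those runs, where 7.03% to 48.6% of all genes did. In every genotype comparison 0 of the 10 passed, and 0.00761% to 0.426% of all genes passed there in the main and block fits. The replicate block changed the call of no other of the 10 genes than Chga in Rem2 KO. The number of pathway genes passing is given with the share of all genes passing in brackets. In Rem2 KO it was 9 under upper quartile scaling (21.3%), 9 under TMM-type scaling (19.9%), 8 under quantile normalization (17.4%), 20 with the replicate block (47.5%), 19 with the block and quantile normalization (46.2%), 20 with the block and a pseudocount of 0.1 (47.2%), 0 in a fit of only the groups compared (0.398%), and 1 to 20 when libraries were left out (1.7% to 47.1%). In Control it was 12 under TMM-type scaling (20.2%), 18 with the block (48.6%), 19 with the block and quantile normalization (46.2%), 17 with the block and a pseudocount of 0.1 (48.5%), 3 in a fit of only the groups compared (7.03%), and 1 to 19 when libraries were left out (0.909% to 51.3%). The sign changes concern small differences. In Rem2 KO the KCl difference of Pcsk2 became 0.026 under upper quartile scaling, 0.12 under TMM-type scaling and 0.054 under quantile normalization with or without the block, and that of Pcsk1n became 0.096 under TMM-type scaling. In Control that of Pcsk2 became 0.0033, 0.12 and 0.019 under the same 3 scalings, the last with or without the block, that of Pcsk1n 0.039 and 0.15 under the first 2, and that of Chgb 0.076 under TMM-type scaling. The interaction became 0.021 for Pcsk1 with a pseudocount of 0.1, with or without the block, and -0.13 for Scg2 with the highest transcript only. Leaving out libraries, with or without the block, gave KCl differences in Rem2 KO of -0.14 to 0.45 for Scg3, -0.12 to 0.12 for Pcsk2, -0.11 to 0.34 for Scg5 and -0.32 to 0.26 for Pcsk1n. In Control it gave -0.015 to 0.25 for Chga, -0.22 to 0.027 for Chgb, -0.17 to 0.062 for Pcsk2 and -0.12 to 0.079 for Pcsk1n. Scg3 passed in block fits without Rem2 KO replicate 2 in Rem2 KO (adjusted p = 0.0139) and without either Rem2 KO replicate in Control (0.0127 and 0.0125). The genotype difference of Vgf without KCl ran from -0.045 to 1.10, and the interaction from -0.68 to 0.46 for Vgf, -0.23 to 0.16 for Pcsk1 and -0.17 to 0.41 for Scg2. The share of the shorter Scg2 form was 28.1 points higher with KCl in Rem2 KO and 35.5 in Control. With swaps within same-numbered pairs, as for a block, the shifts in transcript share of 31.8 points in Scg2 and 4.15 points in Scg3 had an exact permutation p of 0.125. The causes of these shifts were not tested. With 2 libraries a group, FPKM without counts, and unequal depth between libraries numbered 1 and 2, small differences could not be resolved.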
